A study of Mus musculus with 34 samples.

Results

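The genes described here are the zinc finger protein (*Zfp*) genes of the mouse kidney. A gene was a member when its symbol was Zfp followed by a number and at most 1 letter, and when its mean over all 34 libraries was at least 5 CPM, the count of a gene divided by the reads in genes of its library, times 1000000. *Zfp367* was left out by the rule. These conditions gave 265 members of 23509 genes in the tables. Of 354 *Zfp* symbols, 89 lay below the minimum, and 3 of those had no count in any library. The members were thus chosen by their name and their mean CPM over all groups, so levels are given as a description. The last genes inside the minimum were *Zfp438* at 5.05, *Zfp109* at 5.09 and *Zfp931* at 5.40 CPM, and the first genes outside it were *Zfp248* at 4.88, *Zfp689* at 4.88 and *Zfp750* at 4.85 CPM. In UNT, PBS and RGLS4326, 249, 260 and 265 members reached 5 CPM in their own group mean, and 244 did so in every group. The other 21 passed through some groups only and had to differ between groups to do so. They stand in the counts below, and those named are given by their levels or marked as such.

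Kidney RNA of C57BL6 mice was sequenced at postnatal day 28 in 3 groups. UNT was 12 untreated, age-matched mice without the transgene. PBS and RGLS4326 were 11 mice each of a Pkd2-KO polycystic kidney disease model, written Pdk2KO in the labels, in which Cre under the *Pkhd1* promoter deletes floxed *Pkd2* in kidney tubules and collecting ducts. They were dosed subcutaneously with saline (PBS) or with 20 mg per kg of RGLS4326, a modified oligonucleotide that pairs with the seed of the microRNA miR-17 and so inhibits it, on postnatal days 10, 11, 12 and 19. Every RGLS4326 mouse therefore also carried the *Pkd2* deletion, and no healthy mouse received the oligonucleotide. PBS against UNT joins genotype, disease and injection of saline, which cannot be told apart.

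Most zinc finger proteins of this name carry repeated C2H2 fingers, small folds held by a zinc ion that each read a few bases of DNA. Many also carry a KRAB domain, which brings in the corepressor Trim28 and, through it, the histone methyltransferase Setdb1 and heterochromatin proteins, and so silences transposable elements and some genes. KRAB zinc finger genes arose largely by tandem duplication, and many sit in clusters of near-identical neighbours on the same chromosome. A few members have neither function: the name also covers proteins that bind RNA, help build ribosomes or bind the cytoskeleton.

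Annotation of the members followed GENCODE on the build of the deposited counts, GRCm38. A search of the translated coding sequences found a KRAB domain in 124 of 265 members, a SCAN domain, which joins such proteins into dimers, in 9, and a median of 10 C2H2 fingers per protein (range 0 to 37). The domain searches used short sequence patterns, for KRAB within the first 250 residues, so a domain that departs from them would be missed. Members without a domain are those in which none was found, and some of them may carry one. The exons of 82 members overlapped those of another gene. Named members among them include *Zfp90*, *Zfp91*, *Zfp280d*, *Zfp319*, *Zfp524*, *Zfp553*, *Zfp593*, *Zfp608*, *Zfp639*, *Zfp651*, *Zfp652*, *Zfp672*, *Zfp703*, *Zfp706*, *Zfp943*, *Zfp961* and *Zfp963*. The strand setting of the counting is not given in the sources used here, so for these 82 a share of the reads may belong to the neighbour. In 20 clusters, defined as at least 3 members with gaps of at most 200 kb, lay 112 members.

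Because RGLS4326 targets the miR-17 seed, the sites that this seed could pair with are shown for 6 of the 13 members that carry the longest form of the match. They are the 6 for which values are given below, 4 of them called in the RGLS4326 comparison and 2 not. Mature miR-17 is given first, from RefSeq (GRCm38.p6, chr14:115043684-115043706, plus strand), with its seed, bases 2 to 8, in capitals. The other lines are 28 bases of GRCm38 3′ untranslated region (UTR), written 5′ to 3′ on the strand of the gene, with the 8-base match GCACTTTA in capitals.
mmu-miR-17-5p: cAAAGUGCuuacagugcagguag
*Zfp9*: tgctgactcaGCACTTTAccgcatcggt
*Zfp451*, first site: agaaaatttaGCACTTTAataattttga
*Zfp451*, second site: tatgtggcaaGCACTTTAcctattgagc
*Zfp148*: aataatactgGCACTTTAgaacagatta
*Zfp91*: gcttgacttgGCACTTTAgggctccttg
*Zfp385b*: atatcaccatGCACTTTAttttgattaa
*Zfp651*: aataaacgaaGCACTTTAttctgtacag
The capitals lie at chr6:118462265-118462272 (minus strand) in *Zfp9*, chr1:33799568-33799575 and chr1:33797002-33797009 (minus) in *Zfp451*, chr16:33497373-33497380 (plus) in *Zfp148*, chr19:12769564-12769571 (minus) in *Zfp91*, chr2:77527455-77527462 (minus) in *Zfp385b* and chr9:121769040-121769047 (plus) in *Zfp651*. The search covered the longest 3′ UTR of each gene, on its own strand, for GCACTTT and CACTTTA, and GCACTTTA holds both. A match was found in 78 of 264 members with a 3′ UTR (29.55%), and the 8-base form in 13 (4.92%). Over all 14184 tested genes with a 3′ UTR the shares were 21.95% and 4.25%, with a median 3′ UTR of 1315 bases against 1712 bases for the members. A match is a sequence feature only and does not show that miR-17 binds there.

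Libraries held 20823992 to 54981992 reads in genes in UNT, 24226637 to 48891459 in PBS and 17603122 to 35362373 in RGLS4326. All 265 members passed the filter on low counts, and 264 had at least 10 counts in every library. *Pkd2* itself stood at 274 ± 34.4 CPM in UNT, 160 ± 32.2 in PBS and 210 ± 23.8 in RGLS4326 (SD), with reads from whole kidney that include cells in which the Cre is not active. Reads that fell in no gene made up 9.84% to 11.3% of the total in UNT, 5.18% to 8.995% in PBS and 4.94% to 12.0% in RGLS4326. Libraries 5, 6, 7 and 11 of RGLS4326 lay above 11%, and the other 7 did not exceed 8.92%. Reads without a unique alignment made up 22.8% to 25.7% in UNT and 14.8% to 19.4% in PBS. Both shares separated UNT from PBS completely, so in that comparison neither can be told apart from the group. Because only reads in 1 place were counted, reads shared by near-identical members were lost.

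The level of the members moved with these libraries. For each library the median over the members of log2(CPM + 1), less the UNT mean of each gene, was taken after TMM scaling, which sets libraries on a common scale by the bulk of their genes. It ran from −0.08 to 0.19 in UNT, from −0.46 to −0.03 in PBS, from 0.04 to 0.19 in the 4 RGLS4326 libraries above 11%, and from −0.30 to −0.03 in the other 7. The same median over all tested genes stayed between −0.02 and 0.06. UNT 10 was the highest of the UNT libraries for 129 of 265 members (48.7%, against 22.6% of all tested genes) and for 83 of 124 KRAB members. PBS 9 was the lowest PBS library for 121 members (45.7%, against 26.1%). Counts without these libraries are given below for all members and for the KRAB members.

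**Figure D1:**
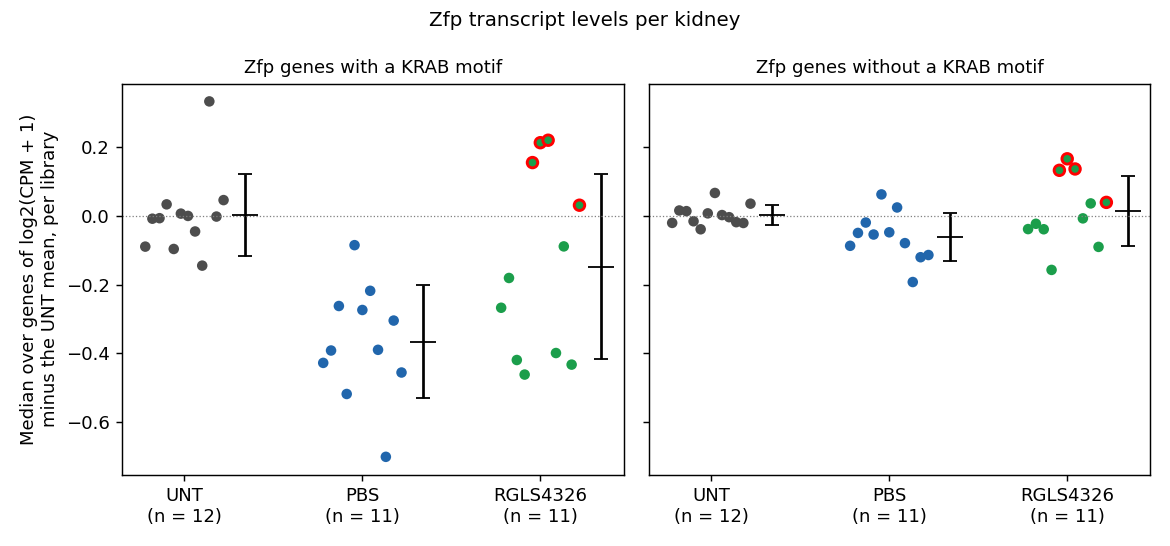
Median of log2(CPM + 1) over the members less the UNT mean of each gene, after TMM scaling, for each library by group (left, 124 KRAB members; right, 141 members without a KRAB domain; points are libraries, bars the mean ± SD, red rings the 4 RGLS4326 libraries with over 11% of reads in no gene). For the KRAB members the ringed libraries averaged 0.15 and the other 7 RGLS4326 libraries −0.32, beside −0.37 in PBS and 0.00 in UNT.

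The plot of library medians shows both features the results turn on: the KRAB members were lower in PBS than in UNT, and RGLS4326 held libraries over a wide range. In the KRAB members RGLS4326 5, 6 and 7 stood at 0.15 to 0.22, above every UNT library but UNT 10, which stood at 0.33 while the others did not exceed 0.05. Library 11 stood at 0.03, and the other 7 ran from −0.46 to −0.09. The KRAB members summed to 2457 ± 217 CPM in UNT, 1760 ± 180 in PBS and 2117 ± 423 in RGLS4326 after TMM scaling (SD). Within RGLS4326 the sum was 2605 ± 156 in the 4 libraries and 1838 ± 191 in the other 7. The members without a KRAB domain summed to 4797 ± 162, 4430 ± 226 and 4663 ± 293 CPM in the 3 groups. Without TMM scaling the order of the groups was another one: all members held 0.634% ± 0.021 of the reads in genes in UNT, 0.664% ± 0.048 in PBS and 0.734% ± 0.101 in RGLS4326, and the 10 genes with most reads held 15.2% of the reads in genes in UNT.

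The first comparison, PBS against UNT, asks how the family stood in the cystic kidney. In edgeR's quasi-likelihood test over 15644 genes, with Benjamini-Hochberg adjustment at 0.05, 141 members were lower in PBS, 79 were higher and 45 did not pass. Of all tested genes 39.0% were lower and 43.1% higher. The members' median log2 fold change was −0.22 and that of all tested genes 0.04. With libraries scaled by size alone, the members' median turned to 0.07, with 111 higher and 86 lower (57.3% and 26.2% of all tested genes), while that of all genes rose to 0.33. The members' median lay below that of all genes on either scale, and falls after TMM scaling are falls relative to the bulk of genes. In 69 members every PBS library lay below every UNT library (19.8% of all tested genes), and in 28 every PBS library lay above (22.7%). Mice are the replicates, so these tests measure the spread between mice. In RNA from whole kidney, fewer cells of a type and less RNA per cell cannot be told apart.

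The lower calls lay mostly among the KRAB members. Of 124, 77 were lower and 22 higher, with a median log2 fold change of −0.37, and 43 did not overlap with UNT on the low side. By library size alone the KRAB median was −0.08, with 50 lower and 36 higher. Of 141 members without the domain, 64 were lower and 57 higher, and their median of −0.11 turned to 0.19 by library size alone. By number of fingers, the median was −0.09 in 44 members with 0 to 4 fingers, −0.22 in 78 with 5 to 9, −0.19 in 91 with 10 to 14 and −0.32 in 52 with 15 or more, which by library size alone became 0.20, 0.07, 0.10 and −0.03. The 9 SCAN members were split, with 4 higher and 5 lower. Leaving out the 82 members with exon overlap gave 100 lower and 52 higher of 183, with a median of −0.23 that turned to 0.06 by library size alone.

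The lower median was also seen in each of 3 library sets, which are the runs of numbering in the deposited file names. The KRAB members' median was −0.39 in set 1, −0.26 in set 2 and −0.60 in set 3. Without UNT 10 it was −0.35, with 74 lower and 24 higher, and all members gave 136 lower and 80 higher (38.6% and 43.1% of all tested genes). Without PBS 9 it was −0.40, with 77 lower and 22 higher, and all members gave 142 lower and 74 higher (40.6% and 41.8% of all tested genes). With adjustment for reads outside genes the members' median turned to 0.09, with 60 lower and 86 higher (33.1% and 37.0% of all tested genes), and the KRAB members stood at 34 lower and 35 higher. With adjustment for reads lacking a unique alignment, 12 members were lower and 43 higher (20.7% and 26.2% of all tested genes). Because these shares did not overlap between the groups, these fits rest largely on differences within groups.

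Among the KRAB members that fell, *Zfp612* (chr8:110079746-110092741, 16 fingers) ran from 24.6 to 33.5 CPM in UNT with a median of 28.2. In PBS it ran from 6.42 to 13.3 with a median of 8.41. All 11 PBS libraries lay below all 12 UNT libraries, a log2 fold change of −1.65 (adjusted p in edgeR = 1.73e-13, SE 0.14). *Zfp946* (chr17:22424222-22456689, 11 fingers) had 21.3, 26.7 and 40.8 CPM as the lowest, median and highest UNT value and 5.60, 7.75 and 12.2 in PBS, a log2 fold change of −1.66 (adjusted p in edgeR = 8.89e-11, SE 0.17). *Zfp788* (chr7:41633203-41651530, 23 fingers) had 27.1, 32.9 and 43.9 CPM in UNT and 8.42, 12.1 and 14.9 in PBS, a log2 fold change of −1.47 (adjusted p in edgeR = 5.28e-11, SE 0.15). None of these groups overlapped, and each fell to about 0.32 to 0.36 of its UNT level.

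*Zfp354a*, also called Kid-1, a KRAB protein known from kidney tubules, lay at 13.3 to 25.1 CPM in UNT (median 16.2) and at 5.01 to 9.48 in PBS (median 6.82), with a log2 fold change of −1.34. *Zfp932*, another KRAB member, had a median of 18.6 CPM in UNT and 6.70 in PBS, and its ranges of 14.5 to 29.1 and 4.29 to 8.21 did not overlap. *Zfp871* ran from 168 to 259 CPM in UNT and from 45.1 to 150 in PBS, with a log2 fold change of −1.13 (adjusted p in edgeR = 2.64e-09). Some lower members were outside the KRAB group. *Zfp706*, a small protein, ran from 234 to 397 CPM in UNT and from 147 to 198 in PBS, and its exons overlap another gene. *Zfp24*, listed under its older symbol *Zfp191* and known for its part in myelination, had medians of 73.8 and 43.5 CPM. The other lower members with the smallest p-values, *Zfp446*, *Zfp869*, *Zfp961*, *Zfp963* and *Zfp639*, had log2 fold changes between −0.94 and −0.53, each without overlap of the groups.

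In the members named here for a rise the search found no KRAB domain. *Zfp385a* (chr15:103313895-103340093), which binds RNA and p53, ran from 3.34 to 7.14 CPM in UNT and from 15.4 to 25.9 in PBS, a 3.58-fold rise with no overlap of the groups (log2 1.84, SE 0.12, adjusted p in edgeR = 1.28e-16). *Zfp703* (chr8:26977325-26981461), a corepressor in which the search found no C2H2 finger, ran from 14.1 to 21.3 CPM in UNT and from 35.3 to 58.0 in PBS, a 2.48-fold rise (SE of the log2 value 0.09, adjusted p in edgeR = 4.24e-15). Its exons overlap another gene.

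*Zfp217*, known as an amplified gene in breast tumours, stood at 24.5 to 30.7 CPM in UNT and at 41.3 to 55.0 in PBS, a 1.83-fold rise with small spread in both groups (SE of the log2 value 0.05). *Zfp608* rose 2.14-fold, from a median of 21.9 to 49.1 CPM. *Zfp185*, an actin-binding protein with a LIM domain, rose 2.09-fold, from 22.0 to 48.3. *Zfp516*, known from brown fat, rose 2.01-fold, and its ranges of 15.9 to 26.8 and 24.6 to 46.1 CPM overlapped. *Zfp362*, *Zfp651* and *Zfp319* rose 1.76-fold to 1.85-fold. Of the developmental regulators listed, 7 of 10 rose and 3 fell (median 0.64), against 43.1% and 39.0% of all tested genes. Among those that rose was *Zfp652*, from 8.75 to 20.3 CPM. *Zfp521*, a protein with 27 fingers known for holding back differentiation of progenitor cells, passed the level minimum through PBS and RGLS4326 only, its UNT mean being 4.64 CPM without TMM scaling, so its difference from UNT is given as levels only. It had 3.83, 5.22 and 6.86 CPM as the lowest, median and highest UNT value and 14.5, 18.0 and 23.3 in PBS.

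**Figure D2:**
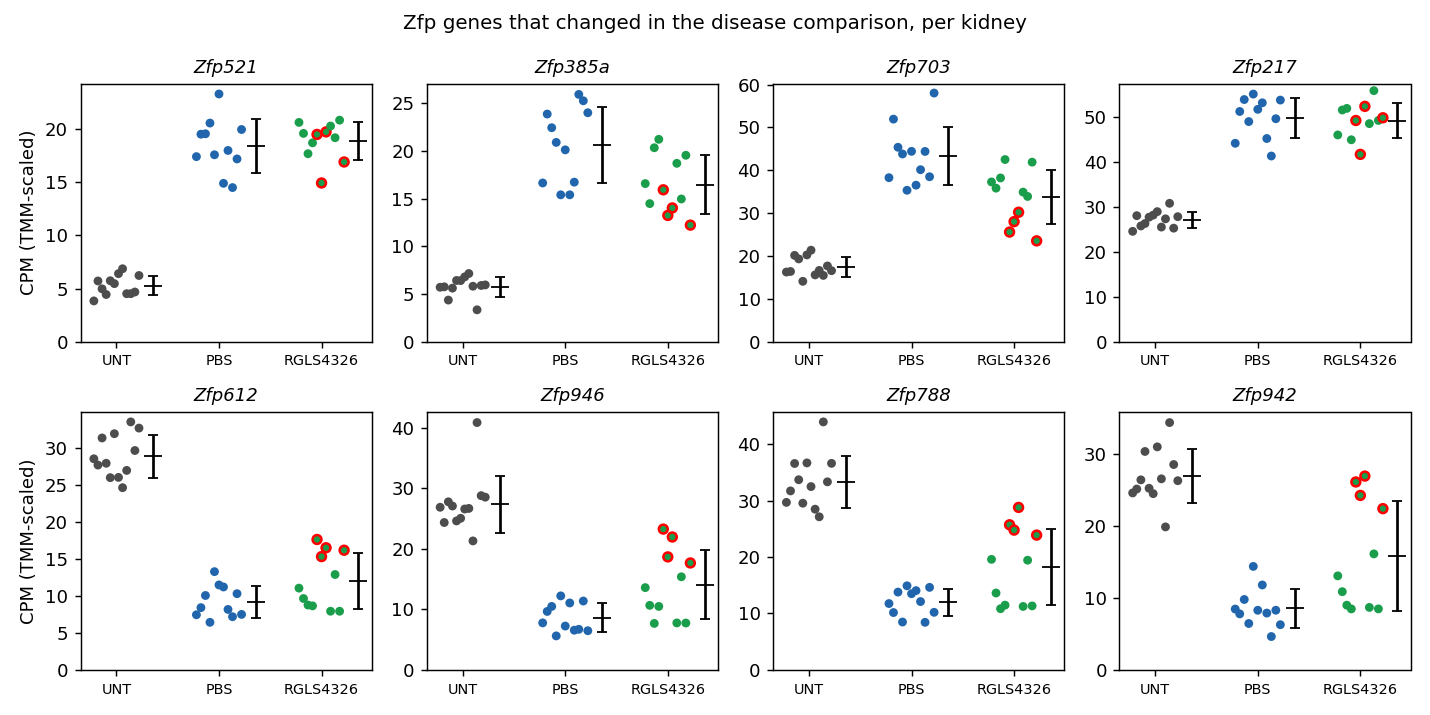
CPM after TMM scaling of 8 members in every library by group (points are libraries, bars the mean ± SD, red rings the 4 RGLS4326 libraries with over 11% of reads in no gene). *Zfp385a*, *Zfp703* and *Zfp217* lay higher in every PBS than in every UNT library, as did *Zfp521*, which passed the level minimum through PBS and RGLS4326 only, *Zfp612*, *Zfp946* and *Zfp788* lower, and for *Zfp942* the ringed libraries at 22.4 to 27.0 CPM stood above the other 7 RGLS4326 libraries at 8.48 to 16.1.

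KRAB members with a known target did not share a direction: 3 rose and 2 fell of 7. *Zfp90* rose from a median of 8.54 to 15.7 CPM without overlap, and *Zfp568*, which controls a placental transcript of *Igf2*, rose from 24.2 to 37.9. *Zfp57*, which protects imprinted loci, had medians of 7.60 and 7.18 CPM (adjusted p in edgeR = 0.716). Members that act on RNA or ribosomes fell in 8 and rose in 3 of 14. *Zfp593*, a ribosome assembly factor, rose from 6.38 to 11.1 CPM, and *Zfp622*, another, had a log2 fold change of 0.45. *Zfp830* and *Zfp326*, which take part in splicing, had log2 fold changes of −0.57 and −0.45, and *Zfp598*, which marks collided ribosomes, −0.38. By library size alone *Zfp326* and *Zfp598* had −0.15 and −0.09 and did not pass. General promoter-binding members were split, with 6 higher and 8 lower of 19 (31.58% and 42.11%). Over all tested genes the shares were 43.1% higher and 39.0% lower, and no result about function is drawn from lists this small.

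Position on the genome was taken next. In clusters, 70 of 112 members were lower and 22 higher (median −0.34), and outside them 71 of 153 were lower and 57 higher (median −0.13). By library size alone these medians were −0.04 and 0.17. Among the KRAB members, after TMM scaling, 50 of 78 were lower and 12 higher in clusters (median −0.34), and 27 of 46 were lower and 10 higher outside (median −0.43). Of the members in which the search found no KRAB domain, 20 of 34 were lower and 10 higher in clusters (median −0.33). Outside clusters 44 of 107 were lower and 47 higher (median 0.00). On chromosome 17, all 3 members of the cluster from position 22337989 (*Zfp944*, *Zfp758* and *Zfp946*) were lower, with a median of −1.59. In the cluster from 21383748, 9 of 10 were lower, with a median of −0.92, and *Zfp53* alone was higher. Its member *Zfp677* lay under the level minimum in PBS. In the cluster from 32765496, which holds *Zfp871*, 9 of 11 were lower and none higher, and in the cluster from 55864892 all 3 were lower, *Zfp119a* and *Zfp119b* among them having reached the level minimum through UNT and RGLS4326 only. On chromosome 13 the cluster from 67121660 had 8 lower and 2 higher of 11, the higher ones being *Zfp87* and *Zfp429*, which lay under the minimum in UNT, and *Zfp759* there lay under it in PBS. The clusters on chromosome 6 from 47835661 and on chromosome 7 from 4915217 each had 4 of 6 higher, with medians of 0.22 and 0.25. On chromosome 7 the cluster from 12804977 had 3 of 5 higher and 2 lower (median 0.23), and the cluster from 127233061 had 3 of 7 higher and 2 lower (median 0.07). In the chromosome 7 clusters from 4915217 and 12804977, *Zfp580* and *Zfp128* lay under the minimum in UNT. These clusters were picked out after their values were seen, and neighbours that share sequence are not independent.

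**Figure D3:**
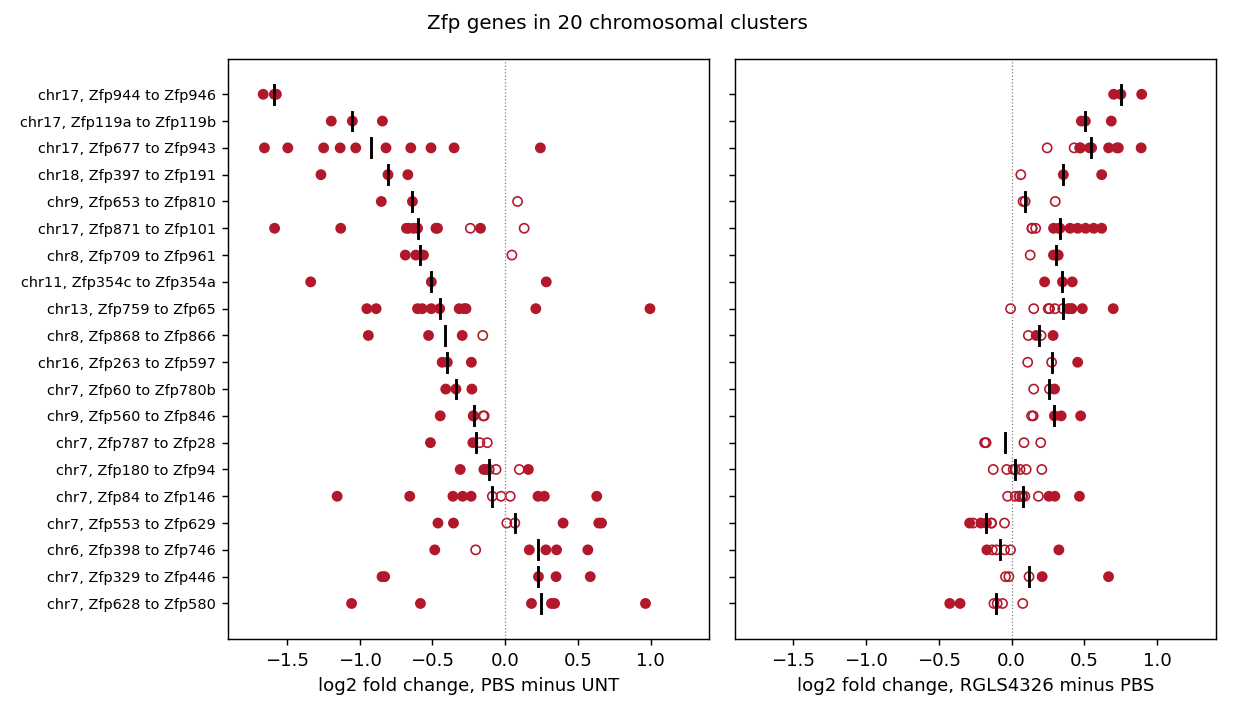
Log2 fold change of each member in 20 genomic clusters, for PBS less UNT and for RGLS4326 less PBS (points are genes, filled at adjusted p under 0.05, black ticks the cluster medians, after TMM scaling; both differences share the PBS libraries). In the 4 chromosome 17 clusters the medians of PBS less UNT ran from −1.59 to −0.60. Their members *Zfp119a*, *Zfp119b* and *Zfp677* reached the level minimum through UNT and RGLS4326 only.

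After TMM scaling most partners of the KRAB proteins were higher. Of 32 corepressor and heterochromatin genes, 21 were higher and 8 lower, with a median log2 fold change of 0.30. These are 65.62% and 25%, against 43.1% and 39.0% of all tested genes. *Trim28* ran from 92.8 to 127 CPM in UNT and from 143 to 218 in PBS, a log2 fold change of 0.68 (adjusted p in edgeR = 2.41e-12, SE 0.06) with no overlap. *Uhrf1*, which brings the maintenance methyltransferase to replicated DNA, rose by 1.42 on the log2 scale (SE 0.16), and that enzyme, *Dnmt1*, rose by 0.67. *Setdb1* had medians of 65.2 and 55.8 CPM and a log2 fold change of −0.21, *Cbx5* −0.22 and *Cbx1* −0.18, all of which turned positive by library size alone (0.08, 0.08 and 0.12), while *Cbx3* had 0.13. In other zinc finger families, 21 of 40 *Zbtb* genes were higher and 11 lower (52.5% and 27.5%), and 13 of 24 *Klf* and *Sp* genes were higher and 7 lower (54.17% and 29.17%). Of the *Zscan* and *Zkscan* genes 9 of 20 were higher and 8 lower (45% and 40%), near the 43.1% and 39.0% of all tested genes. Of the 68 tested *Zfp* genes below the level minimum, 22 were higher and 25 lower (32.35% and 36.76%).

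Markers of the cell types of the kidney moved in the same comparison. All 7 proximal tubule markers were lower in PBS, and their sum ran from 13193 to 18059 CPM in UNT and from 1657 to 4555 in PBS. All 5 measured macrophage markers were higher, their sum being 87.3 to 147 CPM in UNT and 511 to 1305 in PBS. All 6 fibroblast, all 5 collecting duct and all 6 proliferation markers were also higher, and 4 of 5 measured T cell markers. All 4 podocyte and all 3 distal convoluted tubule markers were lower, as were 3 of 4 thick ascending limb markers with 1 higher, and endothelial markers were split, with 2 higher and 3 lower of 5. No marker of these lists was at 0 in every library of a group. Their part in the levels of the *Zfp* genes was not tested.

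The second comparison, RGLS4326 against PBS, asks what the oligonucleotide changed in the cystic kidney. Over all 11 RGLS4326 libraries, 91 members were higher, 20 lower and 154 did not pass the same edgeR test, with a median log2 fold change of 0.15. Of all tested genes 15.3% were higher and 18.5% lower, with a median of 0.00. No member was without overlap of the 2 groups (0.0447% of all tested genes on the high side and 0.0192% on the low side). This comparison and the first share the PBS libraries, so a chance low value in PBS enters both, in opposite directions.

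The higher calls rested on libraries 5, 6, 7 and 11. With the 4 left out, an alternative chosen after seeing the data, no member was higher and 1 was lower in edgeR's test (1.13% and 0.966% of all tested genes), and at an unadjusted p under 0.05 there were 12 higher and 23 lower. The median fell from 0.15 to 0.03. The member still lower was *Zfp672*, at 27.5 to 32.7 CPM in PBS and 20.3 to 31.1 in the other 7, with a log2 fold change of −0.24 (adjusted p in edgeR = 0.0453). It is named only because the count was 1. Without PBS 9, and with all 11 RGLS4326 libraries, 82 members were higher and 12 lower (12.8% and 13.2% of all tested genes), and 53 and 2 of the KRAB members. With adjustment for reads outside genes no member was called in edgeR's test (0.358% and 0.211% of all tested genes), with 11 higher and 20 lower at an unadjusted p under 0.05.

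The library sets also differed from each other. Libraries 5, 6 and 7 are all the RGLS4326 libraries of set 2, and there 129 members were higher and 8 lower (13.6% and 11.9% of all tested genes), with a median of 0.30. In set 1, which held none of the 4, no member was called in edgeR's test (0.261% and 0.0826% of all tested genes), with 14 higher and 16 lower at an unadjusted p under 0.05 and a median of 0.00. In set 3, which held library 11, none was called in edgeR's test (0.0% of all tested genes in either direction), with 43 higher and 6 lower at an unadjusted p under 0.05 and a median of 0.18. Set 3 also held PBS 9, the lowest PBS library for 121 members.

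**Figure D4:**
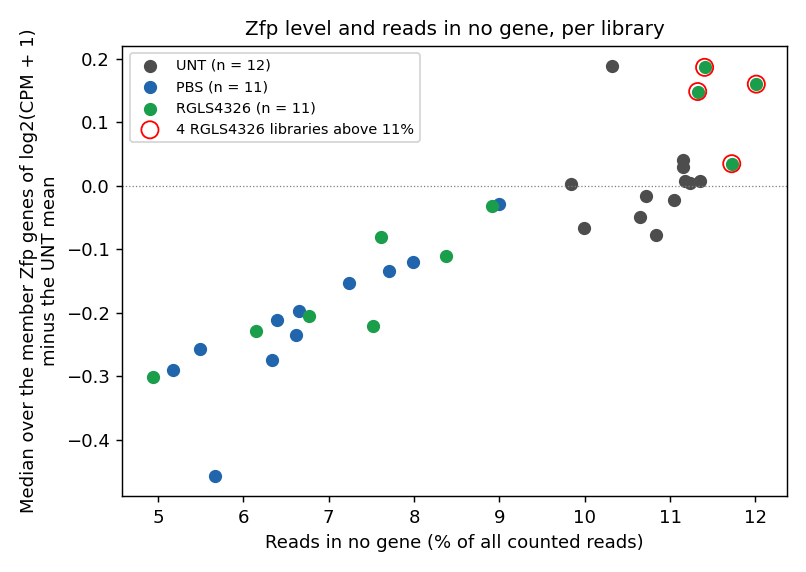
Median of log2(CPM + 1) over the members less the UNT mean of each gene, after TMM scaling (y axis), against the percent of reads in no gene (x axis), 1 point per library, by group. The 4 RGLS4326 libraries above 11% had medians of 0.04 to 0.19, of which libraries 5, 6 and 7 lay above every UNT library but UNT 10 (the highest of the others at 0.04), and the other 7 of −0.30 to −0.03, inside the range of PBS.

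Other measures differed between these 4 libraries and the other 7 as well. The collecting duct markers summed to 672 ± 203 CPM in the 4 and 1255 ± 462 in the 7 (SD), beside 678 ± 104 in UNT and 1565 ± 481 in PBS. The macrophage markers summed to 460 to 646 CPM in the 4 and to 659 to 878 in the 7, with no overlap. The proximal tubule markers summed to 3529 ± 704 and 4212 ± 548 CPM, both far under UNT. The endothelial markers summed to 424 to 443 CPM in the 4 and to 462 to 528 in the 7, with no overlap. The podocyte sums were alike, at 311 ± 29.2 and 315 ± 11.7 CPM. *Pkd2* stood at 225 ± 11.1 and 201 ± 25.0 CPM. The Y-linked gene *Ddx3y*, used below as a covariate for sex, exceeded 1 CPM in 3 of the 4 and in 2 of the 7. It did so in 6 of 12 UNT, 6 of 11 PBS and 5 of 11 RGLS4326 libraries. The part of these differences, and of the reads in no gene, in the rise of the members was not tested. Libraries 5, 6 and 7 make up the RGLS4326 arm of set 2, but library 11 stood beside 8, 9 and 10 in set 3. There its share of reads in no gene was 11.7% against 6.14% to 8.92%, and its KRAB members summed to 2376 CPM against 1694 to 2150.

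**Figure D5:**
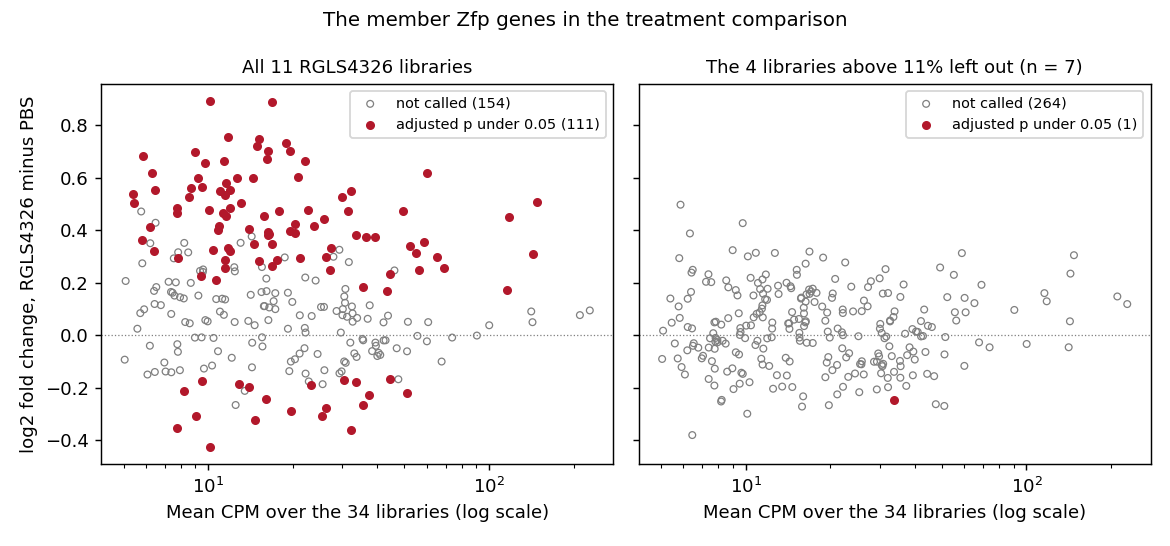
Log2 fold change, RGLS4326 less PBS after TMM scaling, of the 265 members against their mean CPM on a log axis, with all 11 RGLS4326 libraries (left) and without the 4 above 11% of reads in no gene (right); filled points passed adjusted p under 0.05. With all libraries 111 members passed, 91 of them higher, and without the 4 libraries 1 passed.

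With all 11 libraries, the KRAB members made up most of the higher calls: 59 of 124 were higher and 4 lower (median 0.29), against 32 higher and 16 lower of 141 without the domain (median 0.05). The 4 lower KRAB members were *Zfp282*, *Zfp747*, *Zfp764* and *Zfp954*. Of the 52 members with 15 or more fingers 27 were higher and 1 lower, and of the 44 with 0 to 4 fingers 8 were higher and 8 lower. The cluster of *Zfp944*, *Zfp758* and *Zfp946* had 3 of 3 higher (median 0.75), and the chromosome 17 cluster from 21383748 had 7 of 10 higher (median 0.54). On chromosome 7 the cluster from 127233061 had 3 of 7 lower and 0 higher (median −0.17), the cluster from 4915217 had 2 of 6 lower and 0 higher (median −0.11), and the cluster from 24081924 had 0 of 7 called by edgeR's test, with 1 lower at an unadjusted p under 0.05 (median 0.03). Without the 4 libraries no KRAB member was called in edgeR's test, with 6 higher and 6 lower at an unadjusted p under 0.05, and the KRAB median was 0.05. The medians were then 0.05 and −0.03 for the members with 15 or more and with 0 to 4 fingers, and 0.27 and 0.14 for these chromosome 17 clusters. The chromosome 7 clusters from 127233061 and 4915217 then had medians of −0.18 and −0.15.

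*Zfp942*, a KRAB member of the chromosome 17 cluster from 21383748, ran from 4.63 to 14.4 CPM in PBS (median 8.29), from 8.48 to 27.0 in RGLS4326 (median 13.1) and from 19.9 to 34.4 in UNT. PBS and RGLS4326 overlapped, and the 1.85-fold difference (log2 0.89, SE 0.20, adjusted p in edgeR = 0.0031) became 0.32 on the log2 scale without the 4 libraries (adjusted p in edgeR = 0.198). *Zfp758* ran from 3.33 to 8.48 CPM in PBS, from 12.6 to 18.0 in the 4 libraries and from 4.27 to 10.7 in the other 7. *Zfp944* ran from 5.55 to 12.8 CPM in PBS, from 18.8 to 22.2 in the 4 and from 7.28 to 13.3 in the other 7. In both genes the 4 libraries lay above every PBS library while the other 7 overlapped PBS. *Zfp943*, *Zfp770*, *Zfp715* and *Zfp280d* had log2 fold changes of 0.53 to 0.73 over all 11 libraries, and none passed without the 4.

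Lower calls were smaller. *Zfp703*, which had risen in PBS, ran from 23.5 to 42.5 CPM in RGLS4326 (median 34.9) against 35.3 to 58.0 in PBS (median 43.8), a log2 fold change of −0.36 (adjusted p in edgeR = 0.00715, SE 0.09). Without the 4 libraries it was −0.20 (adjusted p in edgeR = 0.165). *Zfp385a* had a log2 fold change of −0.32 (adjusted p in edgeR = 0.0303) and *Zfp185* of −0.23 (adjusted p in edgeR = 0.0366). Without the 4 libraries they had −0.20 and −0.19, and neither passed. *Zfp521* stayed near its PBS level, at 14.9 to 20.9 CPM, with a log2 difference of 0.04 (adjusted p in edgeR = 0.74). *Zfp524*, *Zfp553*, *Zfp622*, *Zfp637*, *Zfp593*, *Zfp358* and *Zfp954* had log2 fold changes between −0.42 and −0.24. Without the 4 libraries these ran from −0.30 to −0.15, and none passed with the smaller number of libraries. *Trim28* had a median of 153 CPM in RGLS4326, a log2 fold change of −0.25 from PBS (adjusted p in edgeR = 0.00619), and without the 4 libraries −0.20 (adjusted p in edgeR = 0.0996).

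Because the oligonucleotide pairs with the seed of miR-17, members with a match in the 3′ UTR were set beside those without. Of 78 with a match, 39 were higher and 3 lower (median 0.28), the lower ones being *Zfp213*, *Zfp385a* and *Zfp553*. Of 186 without, 51 were higher and 17 lower (median 0.10). Over all tested genes with a 3′ UTR, 798 of 3114 with a match were higher and 304 lower (median 0.09), and 1339 of 11070 without were higher and 2407 lower (median −0.03). Without the 4 libraries 65 of all tested genes with a match were higher and 13 lower (median 0.07), and 108 without a match were higher and 127 lower (median −0.03). None of the members with a match was then called in edgeR's test, with 6 higher and 2 lower at an unadjusted p under 0.05, and the medians of the members were 0.09 with a match and −0.01 without. In PBS against UNT, members with a match had a median of −0.29 and those without of −0.18, against 0.00 and 0.11 by library size alone.

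Of the 13 members with the 8-base match, 7 were higher in RGLS4326 than in PBS, none lower, and the median was 0.17. *Zfp9*, whose site is shown above, ran from 3.73 to 6.66 CPM in PBS and from 5.23 to 13.8 in RGLS4326, with a log2 fold change of 0.56 (adjusted p in edgeR = 0.00362, SE 0.13). It ran from 3.58 to 5.48 CPM in UNT, where its mean without TMM scaling lay under the level minimum, so its difference from UNT is given as levels only. *Zfp451*, a SUMO ligase with both printed sites, had a log2 fold change of 0.42 from PBS (adjusted p in edgeR = 0.00563). *Zfp148*, which binds GC-rich promoters, had 0.26, and *Zfp91*, a ubiquitin ligase, 0.17. *Zfp385b* also had 0.17 without passing (adjusted p in edgeR = 0.295), and *Zfp651* had a log2 fold change of −0.00 (adjusted p in edgeR = 0.988). The others called were *Zfp597*, *Zfp60* and *Zfp800*, and those not called were *Zfp408*, *Zfp661*, *Zfp707* and *Zfp827*. Over all tested genes with the 8-base match, 184 of 603 were higher and 48 lower (median 0.14). Without the 4 libraries none of the 13 members was called in edgeR's test, with 3 higher and 0 lower at an unadjusted p under 0.05 and a median of 0.14, and *Zfp9* and *Zfp451* had log2 fold changes of 0.25 and 0.19. Of all tested genes with the 8-base match 26 were then higher and 1 lower (median 0.11).

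RGLS4326 against UNT closed the design. Here 76 members were higher and 94 lower (40.8% and 36.9% of all tested genes), with a median of −0.06 that turned to 0.26 by library size alone (all tested genes 0.02 and 0.33). Of the 124 KRAB members 27 were higher and 48 lower (median −0.11). Without the 4 RGLS4326 libraries 65 members were higher and 131 lower (40.5% and 37.2% of all tested genes, median −0.19), and 19 and 72 of the KRAB members (median −0.34). By set the members' median was −0.24, 0.15 and −0.14. *Zfp612* remained low, at 7.92 to 17.6 CPM against 24.6 to 33.5 in UNT, and *Zfp946* at 7.67 to 23.2 CPM overlapped UNT at 21.3 to 40.8. The RGLS4326 and PBS groups spread more widely among mice than UNT: the median coefficient of variation of the members was 12.9% in UNT, 14.3% in PBS and 17.4% in RGLS4326.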

How the data were processed

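Strand-specific poly(A) RNA libraries of 34 mouse kidneys were sequenced as paired ends. Per the labels and the submitters' processing notes, the authors trimmed reads with Trim Galore, aligned them to GRCm38 with STAR and counted uniquely aligned reads per gene with HTSeq 0.6.1. The notes also list FastQC 0.11.2, Picard 1.119 and SAMtools 1.1. The deposited values are raw counts per gene and library. Rows that name no gene were left out of library sizes and tests, and 0 columns were left unused.

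Genes were filtered with filterByExpr, scaled by TMM and tested with edgeR 4.0.16 (quasi-likelihood, 1 fit of all 34 libraries, 3 groups, no covariate) in R 4.3.3, with Benjamini-Hochberg adjustment over all 15644 tested genes at 0.05. CPM of single genes are TMM-scaled, while the level minimum used plain CPM. A pseudocount of 1 was used for medians by library. The scripts were tested on simulated data. GENCODE M21 gave gene models, and 263 member symbols matched directly and 2 through older names. Named genes were the 10 higher and 10 lower members with the smallest p in PBS against UNT, the 8 and 8 in RGLS4326 against PBS, members of the functional lists, and corepressor genes. Others were named after their values were seen. The members and lists were chosen with earlier results of these data known. No pair of libraries held identical counts. Replicate numbers were checked by correlating deviations from group means (r from −0.33 to 0.41) and were taken as names only. Alternatives were other normalizations, DESeq2 1.42.0, limma-voom (limma 3.58.1), no filter, library sets, quality covariates, a Y-linked gene as a covariate for sex, other level minimums, and left-out libraries.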

Additional observations from a re-analysis of the deposited data

How the results depend on the processing

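This part covers the 10 higher and 10 lower members with the smallest p in PBS against UNT. Besides *Zfp521*, given by its levels only, they kept direction and call under the alternatives, with 8 exceptions. Those 8 no longer passed when adjusted for reads lacking a unique alignment. The other named members are not in this count, and *Zfp326* and *Zfp598* did not pass by library size alone. The 16 members with the smallest p in RGLS4326 against PBS, 8 higher and 8 lower, kept direction. None passed in set 1, in set 3, when adjusted for reads in no gene or without the 4 libraries, and 3 did not pass in set 2. In PBS against UNT, scaling by library size alone gave 86 lower and a median of 0.0707, and set 3 alone 46 higher and a median of −0.36. Adjustment for reads in no gene gave 60 lower and a median of 0.0865, reads without a unique alignment 43 higher, 12 lower and a median of 0.17, and members without exon overlap 52 higher. In RGLS4326 against PBS, sets 1 and 3 gave 0 higher and 0 lower, set 2 gave 8 lower, and no filter gave 12 lower. Adjustment for reads in no gene gave 0 higher, 0 lower and a median of −0.0016, leaving out the 4 libraries 0 higher and 1 lower, leaving out PBS 9 12 lower (23 without UNT 10), and members without exon overlap 13 lower. In RGLS4326 against UNT, library size alone gave 144 higher, 35 lower and a median of 0.26, below the 0.33 of all tested genes. Set 1 gave 47 higher and a median of −0.24, set 2 gave 34 lower and a median of 0.15, and set 3 gave 37 higher. There the covariates gave medians of 0.054 (reads in no gene) and 0.31, with 13 lower (reads without a unique alignment). Where no share of all tested genes is given for a count, here or above, it shows dependence on the processing only. Such a count is not a result about the members. Sets hold fewer samples. For the rest the cause was not tested.

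Replicate numbers do not pair mice. With the replicate block, PBS against UNT gave 77 higher and 139 lower, RGLS4326 against PBS 83 and 20, and RGLS4326 against UNT 76 and 98. With the Y-linked gene *Ddx3y* above 1 CPM as a covariate, the first 2 comparisons gave 79 and 141, and 98 and 20. The main fit gave 79 and 141, 91 and 20, and 76 and 94. Shares over all tested genes are not given for these alternatives, so their counts are compared with the main fit only.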

Other observations

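*Zfp429*, on chromosome 13, varied most within UNT: its coefficient of variation there was 70.1%. It and the next 2 genes were picked after their values were seen. *Zfp57* reached 21.9, 14.2 and 13.7 CPM in RGLS4326 11, 7 and 5. *Zfp239* reached 19.1 CPM in UNT 9 and 14.2 in UNT 3.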
